A study of Mus musculus with 12 samples.

Results

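The transcriptional response to RANKL was measured in cultured mouse bone marrow cells that lack most Asxl2 message. It was read from 6 of the 12 RNA-seq libraries of the series, chosen by their titles: 3 libraries of cells given M-CSF and RANKL (KO_OC) and 3 of cells given M-CSF alone (KO_BMM). All 13030 genes that passed an expression filter, of 41388 listed, were compared. The cells came from C57BL/6 mice labelled positive for LysM Cre, in which the Lyz2 locus drives the recombinase in myeloid cells, and the label calls this genotype a knockout (KO) of Asxl2. Bone marrow cells were grown for 5 days in alpha MEM with serum, trypsinized, replated and held for 2 days in 2% M-CSF with or without 50 ng/ml RANKL. The other 6 libraries repeat both cultures with cells labelled Flox (flox_BMM and flox_OC, 3 each), and were used here only to show where the KO response differed. No group carried Cre with intact Asxl2, so Cre and the loss of Asxl2 cannot be told apart. The labels give neither age nor sex. Nor do they tie a library to an animal or dish, and the p-values therefore speak of the spread among these libraries, which may be technical.

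RANKL is the cytokine that turns cells of the macrophage lineage into osteoclasts, the multinucleated cells that resorb bone. It binds the receptor RANK, which acts through TRAF adaptors on NF-kB and MAP kinases and raises c-Fos. Together with calcium signals from ITAM-coupled receptors this leads to NFATc1, the transcription factor that turns on the genes of fusion, acid secretion and matrix degradation. M-CSF keeps the precursors alive through CSF1R, and macrophage factors such as IRF8 hold back the osteoclast programme. ASXL2 is a chromatin protein that binds the histone H2A deubiquitinase BAP1.

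The 3 KO_BMM libraries held 19139948, 21667237 and 21485858 counts and the 3 KO_OC libraries 18489873, 19107046 and 18971697, and 3 counts, the most that a count of 0 allows for, equal 0.144 to 0.163 CPM (counts scaled to a common total by library size and TMM factor). Asxl2 (chromosome 12, 3426857 to 3506852, GRCm38) stood at 14.9, 14.9 and 15.4 CPM in KO_BMM and at 15.1, 12.7 and 13.4 CPM in KO_OC, against 93.1 and 73.4 CPM on average in flox_BMM and flox_OC. The KO libraries of both cultures overlapped, and the change with RANKL did not pass (edgeR log2 fold change -0.13, SE 0.072, adjusted p = 0.0961). Reads were counted over all exons, and the labels do not say which exons were floxed. Without KO_OC replicate 1 the change passed (-0.21, edgeR adjusted p = 0.0173). Lyz2, the gene that carries the Cre, fell from 19553 ± 393 CPM to 11666 ± 90.4 CPM (mean ± SD, n = 3, edgeR log2 fold change -0.75, SE 0.023, adjusted p = 1.78e-31).

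The label osteoclast was met by only part of the marker list. Of the osteoclast markers, 9 of 11 tested members rose, 1 fell and 1 did not pass the test, where 35.5% of all tested genes rose and 35% fell. The other 2 of 13, Calcr and Oscar, had too few counts to test. Calcr, the calcitonin receptor of mature osteoclasts, had no count in any of the 6 libraries, and Oscar, an ITAM-coupled receptor, lay at or below 0.109 CPM in each. The median log2 fold change of the 11 was 0.87 in KO cells and 1.82 in flox cells. Summed over the list, the markers rose from 1095 to 1099.7 CPM to 1318 to 1348 CPM, while flox_OC libraries held 1951 to 1997 CPM. Members of high level weigh most in this sum, which therefore does not give the size of a single marker's rise. Dcstamp held 5.11 CPM of it in KO_BMM and 22.8 CPM in KO_OC on average. The sum of the 20 macrophage markers fell from 39815 to 40745 CPM in KO_BMM to 21139 to 21392 CPM in KO_OC, with none of them at 0. In bulk RNA, fewer cells of a type and less RNA per cell cannot be told apart.

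RANKL changed most of the tested genes, and most changes were small. With edgeR's quasi-likelihood test at a Benjamini-Hochberg adjusted p under 0.05, 9182 genes (70.5%) were called, 4627 higher (35.5%) and 4555 lower (35%). Among them 5504 (59.9%) moved by under 1.5-fold. A change past 2-fold was called for 796 genes that rose (6.11%) and 1015 that fell (7.79%). Past 8-fold, 124 genes were higher and 32 lower. The KO_OC libraries lay wholly above or wholly below the KO_BMM libraries for 9562 genes (73.4%). Calls in a gene list stand beside the shares of all genes, 35.5% higher and 35% lower, also where these are not repeated. The biological coefficient of variation between libraries was 1.97% in KO_BMM and 1.90% in KO_OC. The count of a split depends on scaling: the 10 most abundant genes took 8.73 to 8.95% of the counts in KO_BMM and 6.01 to 6.06% in KO_OC, and with library size alone the median of all genes moved by 0.13 and 5970 genes were called higher and 3431 lower, 1007 and 807 of them past 2-fold.

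**Figure D1:**
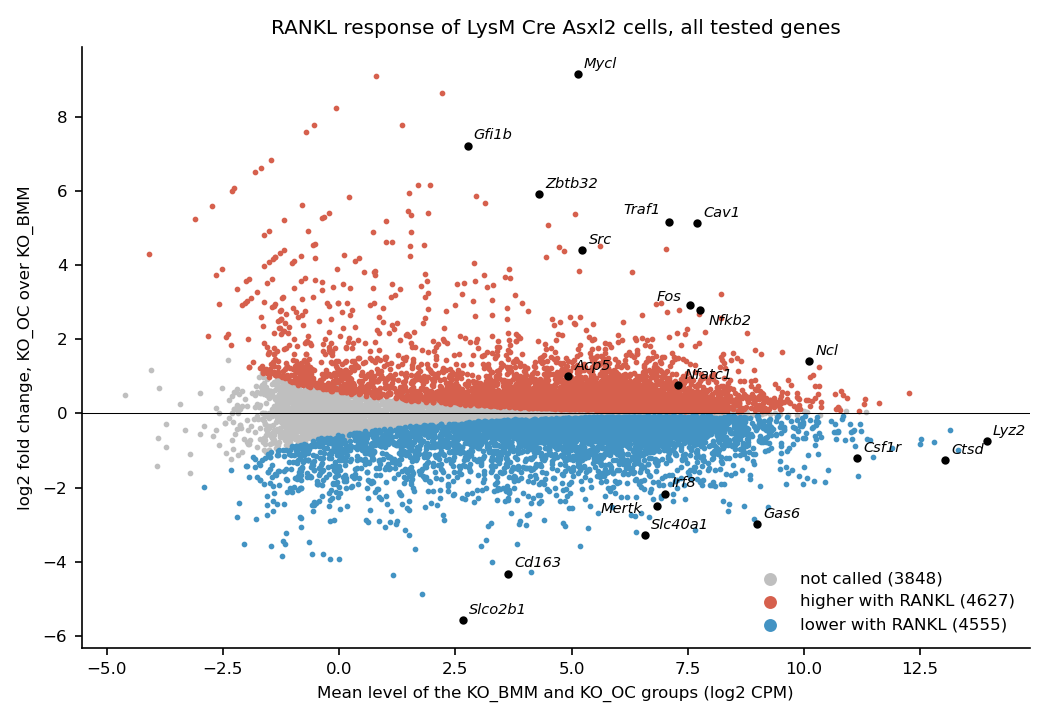
Each point is 1 of the 13030 tested genes, with its mean level in the KO_BMM and KO_OC groups (log2 CPM) on the x axis and its log2 fold change with RANKL on the y axis. Red points were called higher (4627), blue points called lower (4555) and grey points were not called (3848), and black points carry the names of 20 genes, from Mycl at 9.15 to Slco2b1 at -5.59.

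The largest rises began from almost nothing. Mycl, which encodes a MYC family transcription factor, had 7 counts over the 3 KO_BMM libraries and 4183 over the 3 KO_OC libraries, a ratio of summed counts of 599 (95% exact interval 291 to 1491). Its level was 0.217, 0.0963 and 0.0484 CPM in KO_BMM and 72.9, 67.2 and 70.3 CPM in KO_OC. Gfi1b, a zinc finger repressor known from blood cell formation, went from 5 to 805 counts, a ratio of summed counts of 161 (95% exact interval 68.9 to 499). Both genes were near 0 in every library without RANKL and far above it in every library with RANKL. Genes are named by a rule on size and list membership, and those named beyond it were chosen after their values were seen.

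Zbtb32, Vegfc, Met and Gfra2 followed, from 38, 15, 20 and 94 counts without RANKL. Other genes among the 12 largest rises had a firmer starting level. Traf1, a TRAF adaptor and NF-kB target, was at 6.68, 8.14 and 7.32 CPM without RANKL and at 261, 268 and 267 CPM with it (edgeR log2 fold change 5.16, SE 0.05, adjusted p = 3.69e-52). Cav1, the main protein of caveolae, went from 11.5, 11.6 and 11.6 to 402, 402 and 413 CPM (edgeR log2 fold change 5.13, SE 0.1, adjusted p = 6e-12). In neither gene did the groups come close, and Cav1 reached 35.1 times its starting level. Sdc1, the heparan sulfate proteoglycan syndecan 1, rose 21.8-fold from 11.4 ± 1.04 CPM to 250.1 ± 6.92 CPM. Tmem26, Gpr132 and Src completed the 12, and apart from Mycl and Gfi1b their log2 fold changes ran from 4.41 to 5.91. They include receptors (Met for HGF, Gfra2 for neurturin) and a growth factor of lymphatic vessels (Vegfc).

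The 12 largest falls left unequal amounts of message behind. Slco2b1, an organic anion transporter, fell from 12.3, 12.6 and 12.2 CPM to 0.102, 0.247 and 0.401 CPM (edgeR log2 fold change -5.59, SE 0.20, adjusted p = 4.21e-29). Cd163, the receptor for haemoglobin bound to haptoglobin, fell from 24.2, 23.3 and 23.4 CPM to 1.28, 1.19 and 1.05 CPM (edgeR log2 fold change -4.32, SE 0.12, adjusted p = 5.82e-34). For both genes every KO_OC library lay far below the lowest KO_BMM library, and a lack of overlap was a condition of this ranking. Hpgd, which breaks down prostaglandins, fell 19.5-fold, and the ADP receptors P2ry13 and P2ry12 fell 16.1-fold and 11.4-fold. Slc40a1, the only known iron exporter, fell from 172, 173 and 175 to 18.6, 17.4 and 17.1 CPM (edgeR log2 fold change -3.29, SE 0.15, adjusted p = 3.46e-08). Plxdc2, Fcrls, Prr5l, Rnf150, Rcsd1 and the secreted ribonuclease gene Rnase4 made up the rest of the 12, with log2 fold changes from -3.57 to -3.10, and Rnase4, still at 40.5 ± 0.751 CPM in KO_OC, shares 32.6% of its exon length with another gene.

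Receptor and adaptors came first in the order of the pathway. Of the genes of RANK, its adaptors and kinases, 8 of 17 tested members rose, 5 fell and 4 did not pass the test, a share near that over all tested genes, with a median log2 fold change of 0.10 against 0.0017 over all genes. With library size alone the counts were 11 and 2. Tnfrsf11a, which encodes RANK, rose from 179, 171 and 168 to 239.9, 239 and 247 CPM (edgeR log2 fold change 0.49, SE 0.045, adjusted p = 7.84e-09). All 3 KO_OC libraries were higher. Traf3, which holds back alternative NF-kB signalling by degrading the kinase NIK, rose by 1.55 on the log2 scale, Traf2 by 1.15, and the NIK gene Map3k14 by 0.67. Traf6, the adaptor that RANK needs for osteoclast formation, fell by 0.16, and Traf5 (-0.90) and the scaffold gene Gab2 (-0.78) fell further.

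NF-kB genes split by pathway arm. Nfkb2, the p100 precursor of the alternative pathway, stood at 54.5, 56.4 and 54.6 CPM without RANKL and at 389, 378 and 378 CPM with it (edgeR log2 fold change 2.79, SE 0.033, adjusted p = 6.95e-49). Its partner Relb rose from 16.5, 17.5 and 19.4 to 69.3, 72.8 and 72.3 CPM (edgeR log2 fold change 2.00, SE 0.052, adjusted p = 9.07e-35). For each gene every KO_OC library lay well above the highest KO_BMM library. Rela rose by only 0.18, while the values for Nfkb1 (-0.03) and Rel (-0.06) did not pass. Of the 9 feedback inhibitors of NF-kB, 7 rose, 1 fell and 1 did not pass (median log2 fold change 0.71), or 8 and 0 under library size alone. The inhibitor gene Nfkbie rose from 15.4, 16.8 and 14.8 to 56.9, 56.7 and 56.6 CPM (edgeR log2 fold change 1.86, SE 0.058, adjusted p = 2.63e-31). Nfkbia, which encodes the classic inhibitor IkB alpha, rose from 89.5, 85.5 and 90.7 to 313, 317 and 312 CPM (edgeR log2 fold change 1.83, SE 0.032, adjusted p = 3.32e-42), with no overlap in either gene. Tnip1 (1.52) and Bcl3 (1.41) rose by over 2-fold as well, and Tnfaip3, the ubiquitin-editing enzyme A20, by 0.39.

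Promoters of the 2 inhibitor genes and of Acp5, an osteoclast enzyme described further on, are shown because their genes rose with RANKL and these factors are known for binding the letters in capitals. They are RefSeq sequences of GRCm38.p6, read 5′ to 3′ on the gene's strand. Capitals mark the 10-letter NF-kB consensus in Nfkbia (chr12:55492648-55492897, minus strand) and Nfkbie (chr17:45555450-45555699, plus strand), and the NFAT core GGAAA, on either strand, in Acp5 (chr9:22130609-22130848, minus strand). The Nfkbia and Nfkbie stretches are the 250 bases before the start, and the Acp5 stretch is 240 bases, ended where an annotated exon begins. Acp5 has 3 RefSeq windows, and the one printed lies furthest downstream and holds the most matches of the NFAT core, 2 against 1 in each of the others.
Nfkbia: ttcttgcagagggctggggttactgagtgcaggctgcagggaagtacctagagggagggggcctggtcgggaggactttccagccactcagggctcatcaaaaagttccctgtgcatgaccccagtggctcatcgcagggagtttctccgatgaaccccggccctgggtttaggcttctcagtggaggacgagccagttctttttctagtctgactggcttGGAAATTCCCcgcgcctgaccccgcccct
Nfkbie: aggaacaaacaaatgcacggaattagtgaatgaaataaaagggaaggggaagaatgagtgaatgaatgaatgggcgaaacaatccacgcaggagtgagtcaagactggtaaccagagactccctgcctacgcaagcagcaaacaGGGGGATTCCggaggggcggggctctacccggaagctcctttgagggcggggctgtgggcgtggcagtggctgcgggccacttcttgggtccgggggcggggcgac
Acp5: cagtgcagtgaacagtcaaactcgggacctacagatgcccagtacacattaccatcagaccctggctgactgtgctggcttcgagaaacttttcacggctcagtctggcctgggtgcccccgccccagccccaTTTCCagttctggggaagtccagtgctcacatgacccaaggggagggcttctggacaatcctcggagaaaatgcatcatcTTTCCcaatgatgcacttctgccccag

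A match in such a window is a description and not a site of binding. The consensus lay in 8.79% of all 12282 windows of tested genes, in 11.8% of the 737 windows of genes past 2-fold higher in KO cells and in 8.68% of the 1025 windows of those past 2-fold lower. The AP-1 letters TGANTCA were held by 4.48%, 7.73% and 6.15% of the same windows, in that order. Shares for the NFAT core were 54.2%, 53.7% and 54.2%. The E-box CACGTG was in 8.38%, 6.92% and 7.02%, and the M-box TCATGTG, bound by MITF family factors, in 1.87%, 2.99% and 3.32%. Motifs were searched on both strands, and a window can hold several. Windows of 1 gene can overlap, and no test was made of these shares.

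More costimulation genes fell than rose. Of the ITAM and calcium signalling genes, 4 of 17 tested members rose, 10 fell and 3 did not pass the test (median -0.28), beside 35.5% and 35% of all genes, and under library size alone 5 rose and 8 fell. Trem2, a receptor that signals through DAP12, fell from 789.6, 780.5 and 804 to 401, 401 and 407 CPM (edgeR log2 fold change -0.97, SE 0.028, adjusted p = 6.39e-33). The adaptor genes Fcer1g (-0.82) and Tyrobp, for DAP12 itself (-0.40), and the kinase gene Tec (-1.16) fell too. Rcan1, a calcineurin inhibitor and NFAT target, rose by 0.69.

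Transcription factors of osteoclast formation rose unevenly. Of these, 14 of 22 tested members rose, 6 fell and 2 did not pass the test, with a median of 0.36 in KO cells and 0.90 in flox cells. The AP-1 gene Fos stood at 48.5, 40.8 and 41.3 CPM in KO_BMM and at 347, 335 and 312 CPM in KO_OC (edgeR log2 fold change 2.93, SE 0.10, adjusted p = 2.96e-09). Fosl1, its relative, went from 50 to 845 counts over 3 libraries, a ratio of summed counts of 16.9 (95% exact interval 12.7 to 23.0). Junb rose by 1.90 and Myc, a driver of growth, by 1.85, from 73.6, 71.2 and 68.7 to 250.1, 270.2 and 248 CPM. Fosb fell from 47 to 4 counts, a ratio of 0.0853 (95% exact interval 0.0223 to 0.233), and Jun fell by 0.70 on the log2 scale.

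Nfatc1, the master factor, rose from 115, 118 and 115 CPM to 198, 194 and 201 CPM in KO cells (edgeR log2 fold change 0.77, SE 0.031, adjusted p = 3.67e-27). In flox cells it went from 96.5, 102 and 99.6 to 352, 349.6 and 349 CPM (log2 fold change 1.82). All KO_OC libraries were above all KO_BMM libraries and below all flox_OC libraries, and the KO effect was the smaller (difference -1.05, SE 0.043, edgeR adjusted p = 1.09e-23). Jdp2, an AP-1 repressor that osteoclast formation needs, rose from 10.6, 10.6 and 10.9 to 54.0, 58.6 and 57.8 CPM in KO cells (edgeR log2 fold change 2.40, SE 0.06, adjusted p = 1.24e-35). Flox cells started from 10.2, 11.1 and 8.64 CPM and reached 161, 160.1 and 167 CPM (difference -1.62, SE 0.095, edgeR adjusted p = 1.88e-18). Prdm1, the repressor of macrophage factors also called Blimp1, rose by 0.25 in KO cells and 1.29 in flox cells (difference -1.04, SE 0.13, edgeR adjusted p = 1.63e-08). Bhlhe40 (1.03 and 2.08), Tfec (0.42 and 1.21) and Fosl2 (0.69 and 1.16) also rose less in KO cells. Fos, Fosl1, Junb and Nfat5 did the reverse (for Fosl1 at an edgeR adjusted p of 0.048, and up to 0.171 without 1 library), with differences of 0.66, 0.69, 0.18 and 0.19. Fos nevertheless ended lower in KO_OC (332 CPM on average) than in flox_OC (560 CPM), from 43.5 CPM in KO_BMM and 116 CPM in flox_BMM. Fosl1 ended at 14.2 CPM in KO_OC and 29.2 CPM in flox_OC, from 0.835 CPM in KO_BMM and 2.78 CPM in flox_BMM. In all, the KO effect was called below the flox effect for 10 of the 22 factors and above it for 6, where 9.53% and 12.3% of all tested genes were called in these directions (2849 in all, 21.9%). The counts below and above were 11 and 4 under library size alone, 11 and 5 with upper quartile factors and 10 and 4 with DESeq2.

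**Figure D2:**
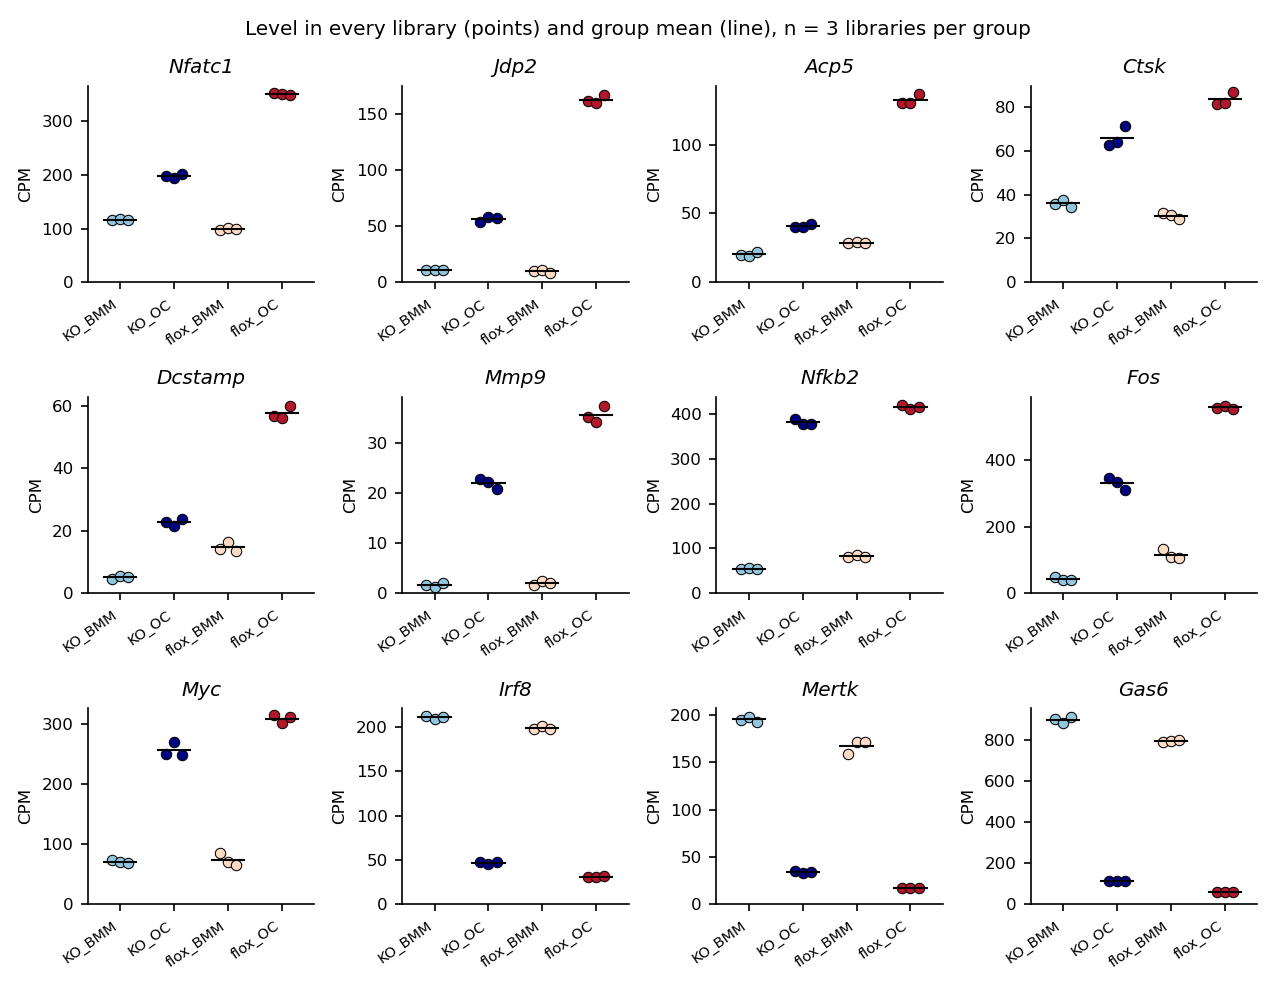
Points are libraries and lines group means (n = 3 per group) of 12 genes, in CPM on axes that start at 0, with KO groups in blue and flox groups in red. Nfatc1, Jdp2, Acp5, Ctsk, Dcstamp, Mmp9 and Fos reached a lower level in KO_OC than in flox_OC, and Irf8, Mertk and Gas6 a higher one.

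Most genes listed here as repressors of osteoclast formation fell. Of these, 3 of 13 tested members rose, 9 fell and 1 did not pass the test (median -1.22), and 8 of the 9 fell past 2-fold. Over all genes 35.5% rose and 35% fell, 7.79% past 2-fold. Irf8, an interferon regulatory factor that restrains NFATc1, fell from 212, 209 and 212 CPM to 47.2, 45.8 and 48.0 CPM (edgeR log2 fold change -2.17, SE 0.034, adjusted p = 9.63e-44). The KO_OC libraries lay far below the KO_BMM libraries, with little spread inside each group. Cebpa (-1.78), Id1 (-2.23), Id3 (-1.22) and Klf2 (-1.29) fell by over 2-fold, while Klf4 rose by 1.56. Whether each listed gene, Cebpa among them, acts as a repressor in these cells was not tested. Flox cells fell further for Irf8 (-2.68, difference 0.51, SE 0.053, edgeR adjusted p = 1.04e-10). The differences put the KO effect above the flox effect in 6 of 13 and below it in 1, beside 12.3% and 9.53% of all genes.

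Fusion genes moved both ways, in shares near those of all genes (35.5% higher and 35% lower). Of these, 6 of 15 tested members rose, 6 fell and 3 did not pass the test (median 0.15). Dcstamp, the membrane protein that fusion depends on, rose from 4.62, 5.54 and 5.18 to 23.0, 21.7 and 23.9 CPM (edgeR log2 fold change 2.15, SE 0.086, adjusted p = 4.17e-27). Ocstamp, its relative, went from 14 to 331 counts, a ratio of summed counts of 23.7 (95% exact interval 13.9 to 43.8). Every KO_OC library was above every KO_BMM library for both. Flox cells rose by 1.96 and 4.56, and neither difference passed (0.19 and -0.03, edgeR adjusted p = 0.243 and 0.991). KO_OC cells nevertheless held 22.8 ± 1.11 CPM of Dcstamp and flox_OC cells 57.6 ± 2.19 CPM, from KO_BMM at 5.11 ± 0.464 CPM and flox_BMM at 14.8 ± 1.42 CPM. Atp6v0d2, a proton pump subunit known for its part in fusion, rose by 0.16, a call lost without KO_BMM replicate 3 (0.12, edgeR adjusted p = 0.0822). Cd44 (0.78) and Cd47 (0.56) rose, and Sirpa, the receptor for CD47, fell (-0.88).

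Resorption genes moved unequally. Of the acid secretion and matrix degradation list, 9 of 17 tested members rose, 5 fell and 3 did not pass the test (median 0.16), beside 35.5% higher and 35% lower over all genes, with 12 and 5 under library size alone. Acp5, the tartrate-resistant acid phosphatase of the third promoter printed above, was at 19.8, 19.2 and 21.8 CPM in KO_BMM and at 39.9, 40.3 and 42.3 CPM in KO_OC (edgeR log2 fold change 1.01, SE 0.054, adjusted p = 3.54e-22). In flox cells Acp5 was at 28.8, 29.5 and 28.4 and then 129.8, 130.4 and 137 CPM, so that no KO_OC library reached any flox_OC library (difference -1.19, SE 0.072, edgeR adjusted p = 4.73e-18). Ctsk, the collagen-degrading cathepsin K, rose from 35.9, 37.5 and 34.5 to 62.4, 64.2 and 71.3 CPM (edgeR log2 fold change 0.87, SE 0.048, adjusted p = 3.64e-21) and by 1.46 in flox cells (difference -0.58, SE 0.07, edgeR adjusted p = 7.63e-09).

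For the matrix metalloproteinase genes the difference from flox cells did not pass. Mmp9 rose from 1.68, 1.30 and 2.08 to 22.7, 22.2 and 20.9 CPM (edgeR log2 fold change 3.70, SE 0.11, adjusted p = 8.08e-32), against 4.10 in flox cells (difference -0.40, SE 0.21, edgeR adjusted p = 0.186). The membrane metalloproteinase gene Mmp14 rose by 1.43 and 1.47. Car2, the carbonic anhydrase that supplies protons, went from 1 to 38 counts, a ratio of summed counts of 38.1 (95% exact interval 6.44 to 1544). Of the pump and channel genes, Tcirg1 (-0.02), Clcn7 (-0.05) and Slc4a2 (-0.03) did not pass, and Ostm1 (-0.55), Rab7 (-0.43) and Plekhm1 (-1.18), which act in lysosome traffic, fell. The KO effect was called below the flox effect for 8 of the 17 genes and above it for 0, beside 9.53% and 12.3% of all genes.

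Podosome genes held large rises among many small falls. Of these, 7 of 25 tested members rose, 14 fell and 4 did not pass the test (median -0.25), or 9 and 11 under library size alone. The shares of all genes were 35.5% higher and 35% lower. Src, the kinase needed for the ruffled border, rose from 3.42, 3.47 and 3.25 CPM to 71.1, 73.9 and 70.5 CPM (edgeR log2 fold change 4.41, SE 0.068, adjusted p = 3.33e-44). Dock5, an activator of Rac needed for the actin ring, rose from 36.4, 42.8 and 40.2 to 285, 268 and 282 CPM (edgeR log2 fold change 2.80, SE 0.043, adjusted p = 2.05e-34). In both genes the groups were far apart, with little spread inside each. Itga5 (1.45) and Myo10 (1.09) rose past 2-fold. Vav3, a Rac activator of mature osteoclasts, fell by 1.68 on the log2 scale, and Itgb3, the integrin beta 3 chain that marks osteoclasts, was at 1.19, 1.78 and 1.65 and then 0.768, 1.29 and 0.953 CPM (60 against 93 counts, edgeR log2 fold change -0.62, SE 0.25, adjusted p = 0.0254). The Itgb3 call was lost in 6 of 13 alternatives, with edgeR or DESeq2 adjusted p up to 0.127.

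More of the factors that osteoclasts send to bone-forming cells and vessels rose than fell. Of these, 7 of 12 tested members rose, 3 fell and 2 did not pass the test (median 0.63), beside 35.5% higher and 35% lower over all genes. C3, the central complement component, rose from 24.7, 26.2 and 26.7 to 204, 196 and 203 CPM (edgeR log2 fold change 2.96, SE 0.04, adjusted p = 1.7e-46). Vegfc went from 15 to 903 counts, a ratio of summed counts of 60.4 (95% exact interval 36.4 to 108). Bmp2, a bone morphogenetic protein, went from 5 to 46 counts, a ratio of summed counts of 9.23 (95% exact interval 3.68 to 29.7). Sema4d (1.17) and Pdgfb (1.00) rose about 2-fold, while Hgf fell from 12.8, 12.7 and 14.0 to 2.56, 3.02 and 2.46 CPM (edgeR log2 fold change -2.29, SE 0.12, adjusted p = 3.49e-21). The receptor gene Met rose as its ligand Hgf fell.

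**Figure D3:**
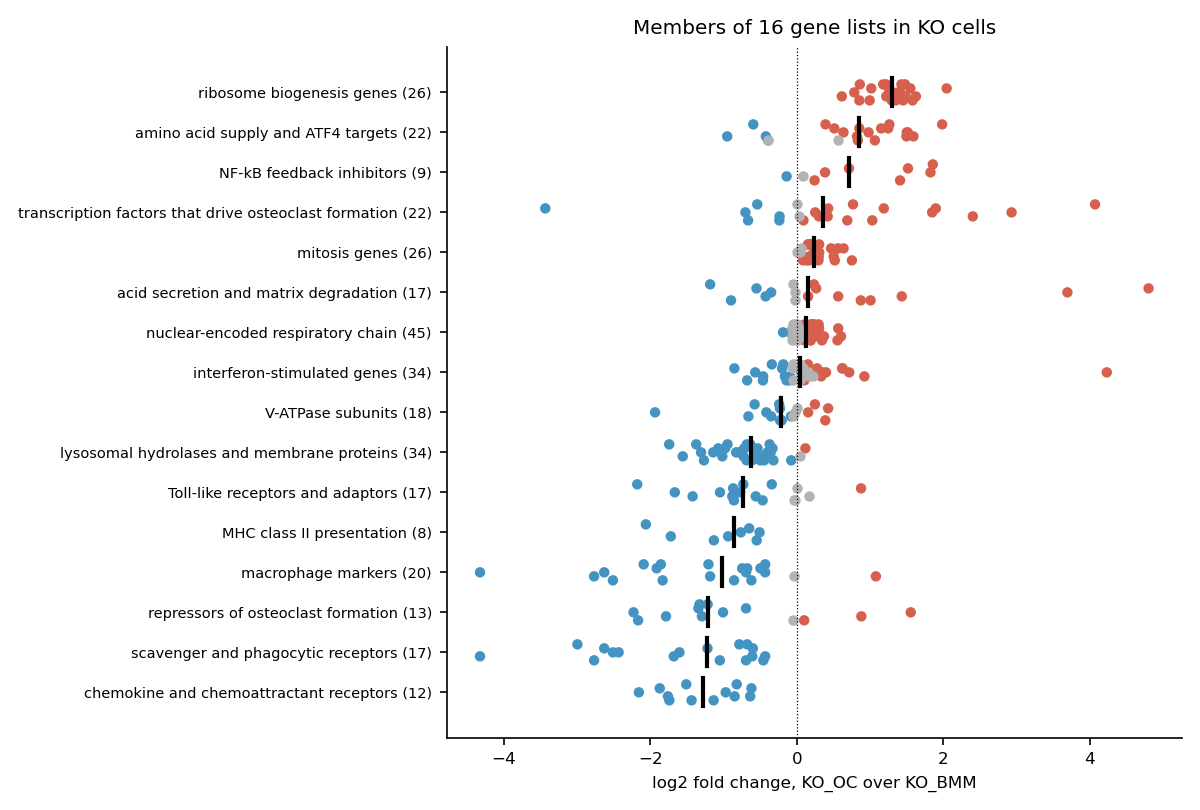
Each point is 1 tested member of 16 gene lists, placed by its log2 fold change in KO cells, red where called higher, blue where called lower and grey where not called. Black bars are list medians, from 1.30 for ribosome biogenesis genes to -1.29 for chemokine and chemoattractant receptors, and the dotted line is the median of all 13030 genes (0.0017).

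Macrophage genes fell across functions. Of the macrophage markers, 1 of 20 tested members rose, 18 fell and 1 did not pass the test (median -1.02), the riser being Adgre4 at under 2 CPM, named after its value was seen. Csf1r, the M-CSF receptor, fell from 3120.1, 3155 and 3183 CPM to 1378, 1346 and 1379 CPM (edgeR log2 fold change -1.21, SE 0.025, adjusted p = 2.53e-39), although 17.8% of its exon length is shared with another gene. Mertk, a receptor for dying cells, fell from 195, 198 and 193 to 35.1, 33.3 and 34.5 CPM (edgeR log2 fold change -2.51, SE 0.039, adjusted p = 3.46e-44). Its ligand gene Gas6 fell from 901, 881 and 912 to 114, 111 and 112 CPM (edgeR log2 fold change -2.99, SE 0.03, adjusted p = 5.59e-52). All KO_OC libraries were below all KO_BMM libraries for these genes.

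Scavenger and phagocytic receptors fell in 17 of 17 tested genes (median -1.22), beside 35% of all genes. Fcgr1, the high-affinity IgG receptor, fell 6.81-fold, and the mannose receptor Mrc1 fell 6.18-fold. Cd36, which takes up oxidized lipoproteins and fatty acids, fell from 1233, 1225 and 1182 to 396, 396 and 408 CPM (edgeR log2 fold change -1.60, SE 0.029, adjusted p = 2.29e-41). Marco (-0.43) and Scarb1 (-0.46) fell least. Chemokine and chemoattractant receptors fell in 12 of 12 (median -1.29), with Cmklr1 at -2.16, the monocyte recruitment receptor Ccr2 at -1.87 and Fpr1, for bacterial formyl peptides, at -1.74. Cx3cr1, the fractalkine receptor, fell from 297, 289 and 285 to 187, 191 and 189.6 CPM in KO cells (-0.62) and further in flox cells (-1.99, difference 1.37, SE 0.11, edgeR adjusted p = 1.34e-05).

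Innate sensing genes fell with them, where 35.5% of all genes rose and 35% fell. Of the Toll-like receptors and adaptors, 1 of 17 tested members rose, 12 fell and 4 did not pass the test (median -0.73), or 3 and 12 under library size alone. Tlr8, an endosomal sensor of RNA, fell by 2.18 on the log2 scale, Tlr13 by 1.66 and Tlr1 by 1.42. Tlr2, the partner of TLR1 in lipopeptide sensing, was the riser, from 109, 102 and 106 to 193, 194 and 194 CPM (edgeR log2 fold change 0.88, SE 0.032, adjusted p = 1.47e-28), with -0.04 in flox cells (difference 0.92, SE 0.045, edgeR adjusted p = 3e-21). Of the complement genes, 3 of 11 tested members rose, 7 fell and 1 did not pass the test. The C1q chains C1qa (-1.91), C1qb (-1.86) and C1qc (-1.83) fell by nearly the same amount, and the receptors C3ar1 (-1.13) and C5ar1 (-0.85) fell as C3 rose.

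Antigen presentation genes fell in class II throughout and in class I by less. All 8 tested MHC class II genes fell (median -0.85). The invariant chain gene Cd74 fell from 110.5, 104 and 110.0 to 75.9, 75.2 and 71.1 CPM (edgeR log2 fold change -0.55, SE 0.038, adjusted p = 5.56e-18), H2-DMa by 2.06 and the class II activator Ciita by 0.94. In no class II gene did the difference from flox cells pass. Of the MHC class I genes, 4 of 14 tested members rose, 10 fell and 0 did not pass the test (median -0.18), and under library size alone the counts were 4 and 4. The peptide loading genes Calr (-0.52) and Pdia3 (-0.52) fell, and H2-K1 (0.34), which has near-identical relatives and is uncertain for that reason, rose.

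Of the interferon-stimulated genes, 11 of 34 tested members rose, 12 fell and 11 did not pass the test (median 0.05), shares near the 35.5% and 35% of all genes. The balance turned to 18 and 5 under library size alone. Cxcl10, a chemokine for T cells, rose from 2.28, 1.93 and 2.37 to 38.6, 42.4 and 42.8 CPM (edgeR log2 fold change 4.23, SE 0.091, adjusted p = 2.74e-38). The antiviral gene Mx1 fell by 0.85 and Ifit1 rose by 0.92 on the log2 scale. In flox cells 8 of the 34 rose and 22 fell (median -0.26), beside 37% and 37.8% of all genes. The KO effect was called above the flox effect for 21 of the 34 and below it for 0, beside 12.3% and 9.53% of all genes. The median level of the list was 5.67 to 5.74 log2 CPM in the KO_OC libraries and 5.67 to 5.74 in the flox_OC libraries. Without RANKL it was 5.59 to 5.68 in KO_BMM and 5.80 to 5.87 in flox_BMM.

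Inflammatory mediators mostly fell. Of these, 3 of 17 tested members rose, 11 fell and 3 did not pass the test (median -0.79), beside 35.5% higher and 35% lower over all genes. The other 9 of 26, among them Il1b, Il6 and Nos2, had too few counts to test. The chemokine genes Ccl4 (-2.95), Ccl7 (-2.15) and Cxcl2 (-2.34) fell past 4-fold. Ptgs2, the inducible prostaglandin synthase, went from 14 to 61 counts, a ratio of summed counts of 4.37 (95% exact interval 2.42 to 8.46). Il1rn, the antagonist of interleukin 1, rose by 1.56, and the chemokine gene Ccl9 by 0.17, against 1.04 in flox cells (difference -0.88, SE 0.044, edgeR adjusted p = 3.2e-20).

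Lysosomal genes fell almost throughout, where 35.5% of all genes rose and 35% fell. Of the lysosomal hydrolases and membrane proteins, 1 of 34 tested members rose, 32 fell and 1 did not pass the test (median -0.62). Ctsd, the aspartic protease cathepsin D, fell from 12088, 11655 and 12032 CPM to 4972, 4924 and 4971 CPM (edgeR log2 fold change -1.27, SE 0.024, adjusted p = 1.64e-40). Lgmn, the asparaginyl endopeptidase legumain, fell by 1.74 and Galc, which degrades galactosylceramide, by 1.31 on the log2 scale. Ctsl (0.12) was the member that rose. Of the V-ATPase subunits, 4 of 18 tested members rose, 11 fell and 3 did not pass the test (median -0.21), or 7 and 10 under library size alone. Subunit a1 (Atp6v0a1) fell by 1.93, while the a2 gene Atp6v0a2 (0.43) rose and the osteoclast a3 gene Tcirg1 did not pass.

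Growth genes rose. All 26 ribosome biogenesis genes rose, 21 of them past 2-fold, where 6.11% of all genes did (median 1.30). Dkc1, the pseudouridine synthase dyskerin, rose by 2.05, and Nop16, Gnl3 and the RNA polymerase I gene Polr1b by 1.63, 1.58 and 1.55. Ncl, the abundant nucleolar protein nucleolin, rose from 605, 619 and 587 to 1573, 1606 and 1639 CPM (edgeR log2 fold change 1.41, SE 0.028, adjusted p = 5.85e-40). The median level of the list was 5.77, 5.73 and 5.73 log2 CPM in the KO_BMM libraries and 7.09, 7.09 and 7.08 in the KO_OC libraries. Ribosomal protein genes themselves, taken as symbols of Rpl or Rps with a number, took 0.653 to 0.666% of the counts in KO_BMM and 0.960 to 0.968% in KO_OC. Entries named as pseudogenes and genes such as Rplp1 were left out, so the level of this share is uncertain. Of the amino acid supply and ATF4 target genes, 16 of 22 tested members rose, 4 fell and 2 did not pass the test (median 0.84). The leucine transporter Slc7a5 (1.99), the arginine transporter Slc7a1 (1.52), asparagine synthetase Asns (1.59) and the serine enzyme Shmt2 (1.50) led, and Slc3a2, the heavy chain that pairs with SLC7A5, fell (-0.95).

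Mitosis genes rose by small amounts from a high start. Of these, 23 of 26 tested members rose, 0 fell and 3 did not pass the test (median 0.24), by at most 0.75 for Ube2c, which shares 22.8% of its exon length with another gene. The flox median was 0.67, and the KO effect was called below the flox effect in 26 of 26, beside 9.53% of all genes. The median level of the list was 7.05, 7.07 and 7.02 log2 CPM in KO_BMM against 6.05, 6.20 and 6.30 in flox_BMM, and 7.25, 7.25 and 7.25 in KO_OC against 6.88, 6.89 and 6.96 in flox_OC. The KO_BMM libraries thus already lay above the flox_OC libraries. Of the G1/S and replication genes, 23 of 30 tested members rose, 5 fell and 2 did not pass the test (median 0.21), beside 35.5% higher and 35% lower over all genes. Cdk6 was up by 0.77 and Ccnd2 down by 1.10. Of the 7 cyclin-dependent kinase inhibitors, 0 rose and 4 fell, Cdkn2d (-0.67) and Cdkn2c (-0.64) the furthest. The 3 others had an edgeR adjusted p over 0.05.

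**Figure D4:**
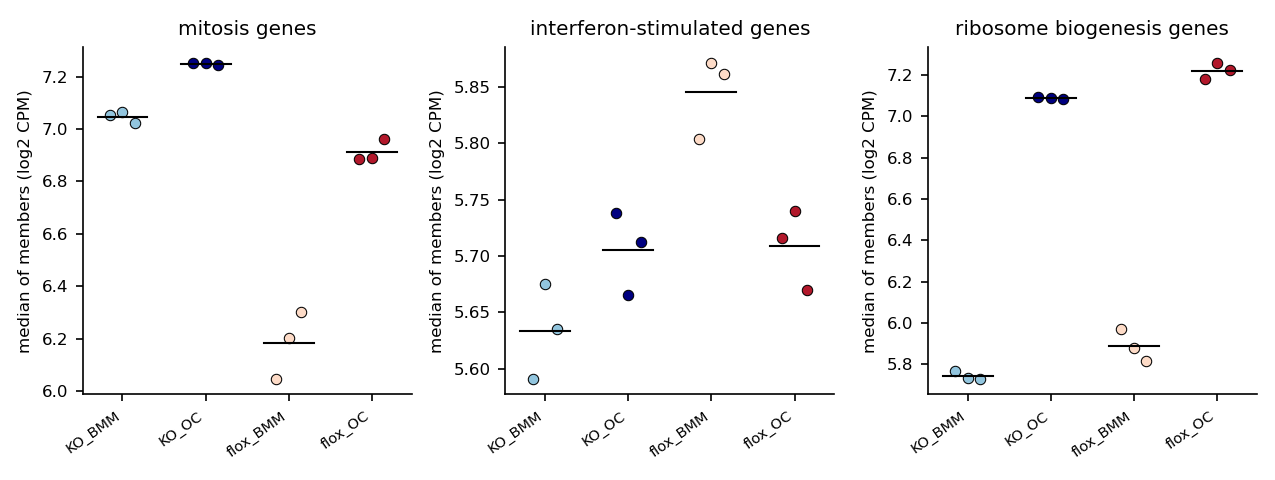
Points are libraries and lines group means (n = 3) of the median log2 CPM over the members of 3 lists, on axes that do not start at 0. Mitosis genes were already high in KO_BMM (7.02 to 7.07), and ribosome biogenesis genes rose in both genotypes. Interferon-stimulated medians of KO_BMM (5.59 to 5.68) and KO_OC (5.67 to 5.74) overlapped, and those of flox_BMM (5.80 to 5.87) lay above those of flox_OC (5.67 to 5.74).

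Energy genes shifted modestly, and their counts stand beside 35.5% higher and 35% lower over all genes. Among respiratory chain genes encoded in the nucleus, 28 of 45 tested members rose, 2 fell and 15 did not pass the test (median 0.12), or 40 and 0 under library size alone. Cycs, for cytochrome c (0.60), which has processed pseudogenes and is uncertain, and Cyc1 (0.56) rose most with Atp5g1 (0.57). Of the tricarboxylic acid cycle genes, 15 of 22 tested members rose, 6 fell and 1 did not pass the test (median 0.25), or 16 and 2 under library size alone, led by Idh3a (0.91). The KO effect was called below the flox effect for 21 of 45 and 10 of 22 genes of these lists, and above it for 0 and 0. Over all genes the shares were 9.53% below and 12.3% above. The counts below were 30 and 12 under library size alone and 15 and 8 with DESeq2. Of the glycolysis and hypoxia genes, 11 of 23 tested members rose, 10 fell and 2 did not pass the test (median 0.18), or 13 and 7 under library size alone. The hexokinase genes Hk3 (-1.96) and Hk2 (-1.64) fell and lactate dehydrogenase Ldha (0.66) rose.

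Lipid and iron genes followed the macrophage genes in part, where 35.5% of all genes rose and 35% fell. Of the cholesterol synthesis and uptake genes, 5 of 24 tested members rose, 16 fell and 3 did not pass the test (median -0.30), with Insig1 (-1.12) and Hmgcs1 (-0.80) among the falls. Of the LXR target and efflux genes, 2 of 14 tested members rose, 10 fell and 2 did not pass the test (median -0.40). Apoe, the lipid carrier of macrophages, fell by 1.53 on the log2 scale. Of the fatty acid genes, 12 of 28 tested members rose, 11 fell and 5 did not pass the test (median -0.03, or 0.10 under library size alone). Pparg, a nuclear receptor of lipid storage that also acts in osteoclast precursors, rose from 10.3, 10.5 and 10.4 to 28.7, 30.9 and 28.8 CPM (edgeR log2 fold change 1.50, SE 0.069, adjusted p = 1.33e-24), and the acyl-CoA synthetase Acsl1 by 2.21, while Ppard fell by 2.20. Of the iron genes, 3 of 13 tested members rose, 10 fell and 0 did not pass the test (median -0.41), led by the exporter Slc40a1 described above, the haem oxygenase Hmox1 (-1.97) and the ferroxidase Cp (-1.75, 102 and 30 counts). Of the Nrf2 list, 10 of 21 tested members rose, 10 fell and 1 did not pass the test, nearly even as over all genes, with Sod2 (0.83) and Slc7a11 (1.15) higher.

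Chromatin genes of the ASXL and Polycomb families moved little. Of these, 10 of 27 tested members rose, 10 fell and 7 did not pass the test (median -0.02), near the 35.5% and 35% of all genes, or 13 and 6 under library size alone. Asxl1, the closest relative of Asxl2, rose by 0.29, and Bap1, the enzyme both bind, had a value of -0.03 that did not pass. The demethylase gene Kdm6b rose by 0.87 and the Polycomb genes Cbx8, Phc1 and Cbx2 fell by 0.63, 0.62 and 0.61.

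On the scale of RPKM (CPM per kilobase of exon), on which genes of different length compare, the gains were led by Vim, the filament protein vimentin, from 1699 to 2482 RPKM. Other large gains were S100a4, Anxa1, Cstb, Lmna, Hsp90ab1, Gpx1 and Eif5a. The largest loss was Lyz2, from 15444 to 9215 RPKM, ahead of the ferritin chain Fth1, Ctsd, Tmsb4x, C1qb, Ctsb, Psap and Actb. Fth1, Tmsb4x, Actb and Eif5a have processed pseudogenes, so their levels are uncertain. By log2 fold change, Anxa1, a mediator that dampens inflammation, rose by 1.67 and Lmna, of the nuclear lamina, by 1.25.

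Summed marker levels of most other cell types were lower in KO_OC than in KO_BMM, while single markers moved both ways. Over all tested genes 35.5% were called higher and 35% lower. Monocyte markers summed to 326 to 337 CPM in KO_BMM and 283 to 294 CPM in KO_OC, and 2 of 6 tested members rose, 3 fell and 1 did not pass the test, with Vcan (4.38) up and F13a1 (-2.52) down. Neutrophil markers went from 63.3 to 64.7 CPM to 18.6 to 21.2 CPM (3 of 6 tested fell and 0 rose, with Elane and Ly6g at 0). Csf3r alone made up 36.9 CPM of this sum in KO_BMM and 8.59 CPM in KO_OC on average. B cell markers went from 17.0 to 18.6 CPM to 7.74 to 8.23 CPM, nearly all of it Ighm (2 of 3 fell, 0 rose, with Vpreb3 among the members at 0). T and NK cell markers went from 54.5 to 59.3 CPM to 38.4 to 42.5 CPM, nearly all of it Il7r, the 1 member tested, which fell, and Cd3e, Cd3g, Cd8a, Gzmb, Ncr1 and Nkg7 had no count. Megakaryocyte markers went from 48.5 to 53.1 CPM to 16.3 to 17.5 CPM (1 of 3 fell, Pf4 at -1.69, and 1 rose, Gp1ba, a call lost without KO_BMM replicate 1 or 2 or KO_OC replicate 1 at edgeR adjusted p up to 0.119, with Gp6 and Gp9 among the members at 0). Stromal markers went from 80.2 to 90.9 CPM to 66.4 to 77.6 CPM (4 of 12 fell, a share near that of all genes, or 1 under library size alone, and Runx2 rose, with Bglap at 0). Endothelial markers went from 31.1 to 34.4 CPM to 18.8 to 20.6 CPM (4 of 5 fell, 0 rose, with Emcn at 0). Dendritic cell markers went from 129 to 147 CPM to 149 to 154 CPM, nearly all of it Itgax (124 to 141 and 143 to 147 CPM). Of 5 tested dendritic cell markers 2 rose and 1 fell, Batf3, from 40 to 3 counts. Mast cell and basophil, erythroid and adipocyte markers summed to at most 1.25, 0.401 and 0.0495 CPM in any KO library, with 6, 3 and 5 members at 0, and only Gata2 of these lists was tested, going from 15 to 58 counts. The part of these cells in the results above was not tested.

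The KO response was next set against the flox response with a test of the difference. Flox cells had 9747 called genes (74.8%), 895 past 2-fold higher (6.87%) and 1372 past 2-fold lower (10.5%). Both genotypes moved 1567 genes past 2-fold in the same direction, which is 86.5% of the 1811 such genes in KO cells and 69.1% of the 2267 in flox cells. The difference of the effects was called for 2849 genes, with the KO effect above in 1607 and below in 1242. With library size alone this split turned, to 1312 above and 1716 below. The flox_BMM libraries entered every difference and were the most variable, with a biological coefficient of variation of 4.03%, and without flox_BMM replicate 1 the split was 1661 above and 1628 below. Among the 1015 genes past 2-fold lower in KO cells, the KO effect was above the flox effect, a smaller fall, in 329 and below it in 38. Among the 796 past 2-fold higher it was above in 135 and below in 85. Both cuts were made on the KO effect, which also enters the difference and so favours a larger KO effect. Among all 4627 genes called higher in KO cells the KO effect was above in 400 and below in 757. Among all 4555 called lower it was above in 1011 and below in 261. The KO effect and the flox effect were called in opposite directions for 100 of the 13030 tested genes. The difference was called for each of the 100, which 2 called effects of opposite sign make nearly certain.

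Some of the largest differences went each way. Cav1 rose more in KO cells (5.13 against 3.27, difference 1.86, SE 0.14, edgeR adjusted p = 7.68e-06), from 11.6 ± 0.0915 CPM to 406 ± 6.39 CPM, where flox cells went from 51.6 ± 8.77 CPM to 497 ± 10.7 CPM. Tmem26 did so as well, from 1.29 ± 0.0777 CPM to 43.6 ± 1.63 CPM (difference 1.97, SE 0.16, edgeR adjusted p = 4.96e-14). Both genes began lower in KO_BMM than in flox_BMM. Ch25h, which makes 25-hydroxycholesterol and has 11.8% exon overlap with another gene, had KO and flox effects of -1.06 and -2.96. At the other end, Plxna4, a semaphorin receptor, had effects of 1.53 and 3.92 (difference -2.40, SE 0.25, edgeR adjusted p = 1.54e-10). The chemokine receptor Ccr1 fell in KO cells, from 16.8, 15.5 and 13.4 to 8.56, 6.73 and 8.03 CPM (-0.97), and rose in flox cells (0.23, difference -1.20, SE 0.12, edgeR adjusted p = 5.5e-11).

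**Figure D5:**
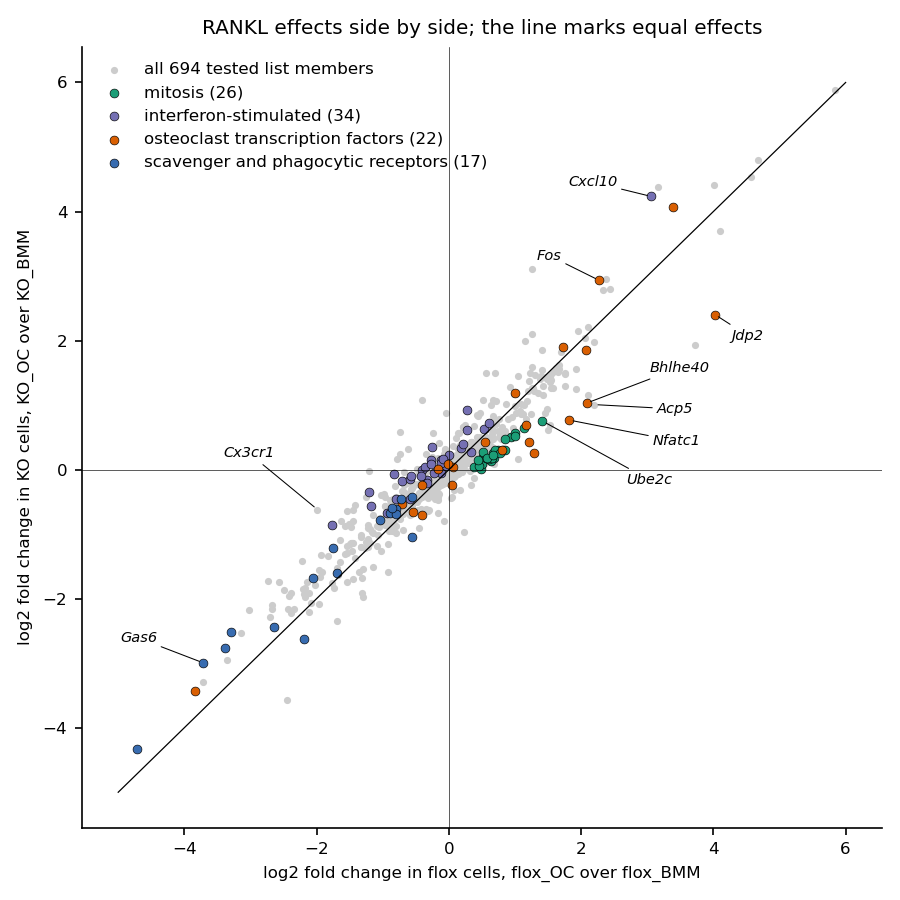
Each point is 1 of 694 tested list members, with its log2 fold change with RANKL in flox cells on the x axis and in KO cells on the y axis, and 4 lists in colour. The 26 mitosis genes lie below the line of equal effects, Nfatc1, Jdp2, Acp5 and Bhlhe40 far below it, and most interferon-stimulated genes above it.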

How the data were processed

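The authors deposited raw, unscaled read counts for every gene of each library. STAR 2.0.4b and GRCm38 are named for the alignment in the submitters' processing notes. Per the file headers, reads over exons were summed by gene with featureCounts 1.4.5-p1 and Ensembl release 76, at strand setting 0. Strand was thus ignored, and antisense or overlapping partners share reads. How reads that align to several places were treated is not given in the sources used here. Symbols came from GENCODE M21, which matched 40254 of 41388 identifiers, and the other 1134 held 0.136% of the counts.

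Groups were taken from the sample titles. edgeR 4.0.16 (R 4.3.3) was fitted to all 12 libraries with 4 group means, TMM factors, its low-count filter and the robust quasi-likelihood F test, for 13030 genes and 3 contrasts: RANKL in KO cells, RANKL in flox cells and the difference of the 2. A gene was called where its adjusted p (Benjamini-Hochberg, over all tested genes) was under 0.05. Each SE was taken from the F statistic and the fold change. Ratios from few counts have 95% exact intervals, which, like the limit of 3 counts for a count of 0, cover counting error only. The fit was tested on simulated data drawn for KO_OC against KO_BMM (12865 genes): 88%, 88%, 96% and 100% of 50 genes each changed by 0.5, 1.5, 2 and 4-fold were called, and 0.0474% of unchanged genes. These data held 12665 unchanged genes with the same mean level in all libraries, whereas most genes were called in the real comparison. The rates therefore do not speak for scaling where most genes move. No library repeated another (chi-square of replicate counts over genes 1.23 to 5.05 per degree of freedom).

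The members and the 47 gene lists were chosen with earlier results of these data known. Lists were described by counts and medians, with no test of a list. Named genes were Asxl2, Lyz2 and 12 osteoclast and macrophage genes, the 12 largest rises and 12 largest falls with no overlap and at least 10 CPM, the 8 largest gains and losses in RPKM, the 6 largest differences either way, and up to 4 called members of each list. Members named beyond this rule were chosen after their values were seen: Asxl1, Bap1, Bhlhe40, C3ar1, C5ar1, Ccl9, Cd44, Cd47, Cd74, Clcn7, Ctsl, Cx3cr1, Fosl2, Id3, Il1rn, Junb, Klf2, Map3k14, Marco, Myc, Myo10, Ncl, Nfat5, Nfkb1, Ostm1, Pdgfb, Pparg, Prdm1, Rab7, Rel, Scarb1, Sema4d, Sirpa, Slc3a2, Slc4a2, Tcirg1, Tfec, Tlr2, Tnfaip3, Traf6, Tyrobp, Adgre4, Jun and Calcr. Some listed genes are not reported here by name. The NF-kB consensus was added to the motif search after the data were seen. Alternatives were other scalings, DESeq2 1.42.0, other filters, the 6 KO libraries alone, a replicate block and leaving out each library. Same-numbered libraries did not deviate together (correlations of deviations -0.035 to 0.040), and the labels tie no number to an animal or day.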

Additional observations from a re-analysis of the deposited data

Results flagged for a closer look

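For 106 of the 206 named genes the effect of RANKL in KO cells and that in flox cells differed by the test of the difference itself (edgeR, adjusted p under 0.05), the KO effect being above the flox effect in 67 and below it in 39. The difference was called for 21.9% of all tested genes, and named genes were chosen partly for it. Each value below is the difference of log2 fold changes, KO minus flox, and does not say which genotype reached the higher level.

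Genes that rose in both genotypes and rose more in KO cells were Nfkbia (0.13), Sod2 (0.17), Spn (0.26), Asns (0.33), Tnfrsf11a (0.37), Dock5 (0.37), Anxa1 (0.39), Itga5 (0.40), Src (0.40), Nfkbie (0.45), Nfkb2 (0.45) and C3 (0.58). Larger differences of this kind were those of Ifit1 (0.65), Fos (0.66), Fosl1 (0.69), Relb (0.85), Gfra2 (0.96), Cxcl10 (1.17), Vcan (1.21), Tnip3 (1.40), Bmp2 (1.85), Cav1 (1.86) and Tmem26 (1.97). Anxa1, Dock5, Itga5, Ifit1, Fos, Fosl1, Cxcl10, Bmp2 and Cav1 started lower in KO_BMM than in flox_BMM and also ended lower in KO_OC than in flox_OC. Cxcl10 ended at 41.3 CPM in KO_OC and 49.5 CPM in flox_OC, from 2.19 and 5.92 CPM. Asns, C3 and Gfra2 ended higher in KO_OC, C3 at 201 against 113 CPM.

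Genes that fell in both and fell less in KO cells were Csf1r (0.12), Gab2 (0.13), Pdia3 (0.16), Ctsb (0.17), Trem2 (0.18), Gclm (0.19), Ctsd (0.20), Cebpa (0.23), Hmgcs1 (0.23), Atp6v0a1 (0.26), Galc (0.27) and Tlr13 (0.28). A smaller fall in KO cells was also called for Cmklr1 (0.28), Tmsb4x (0.29), Lyz2 (0.29), Rxra (0.32), Nceh1 (0.33), Pfkfb4 (0.34), C1qc (0.34), C1qb (0.34), Calr (0.35), Lgmn (0.41), Ctse (0.41) and Hk3 (0.45). It was called further for C1qa (0.47), Irf8 (0.51), Csf3r (0.57), Fcgr1 (0.62), F13a1 (0.62), Ccr2 (0.62), Fcrls (0.65), Rnf150 (0.66), Hpgd (0.68), Gas6 (0.72) and Mertk (0.79). It was likewise called for Tlr1 (0.81), Fpr1 (0.83), Tlr8 (0.84), Mx1 (0.92), Rnase4 (1.03), Zfp618 (1.47) and Ch25h (1.90).

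Genes that rose in both and rose less in KO cells were Plxna4 (-2.40), Gata2 (-1.79), Jdp2 (-1.62), Oaf (-1.21), Acy1 (-1.20), Acp5 (-1.19), Nfatc1 (-1.05), Slc7a11 (-0.95), Rcan1 (-0.84), Ube2c (-0.66), Ctsk (-0.58) and Bub1 (-0.49). A smaller rise in KO cells was also called for Aurka (-0.47), Cdc20 (-0.43), Mdh2 (-0.32), Atp6v0d2 (-0.31), Vim (-0.31), Traf2 (-0.27), Shmt2 (-0.26), Cyc1 (-0.21), Slc7a5 (-0.20), Atp5b (-0.19), Dlst (-0.18) and Idh3a (-0.18). Further such genes were Ldha (-0.15), Tnip1 (-0.13), Eif5a (-0.11) and Hsp90ab1 (-0.11).

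Genes that fell in both and fell further in KO cells were Scd2 (-0.67), Cdkn2d (-0.51), Traf5 (-0.46), Mrc1 (-0.44), Vav3 (-0.36), Cdkn2c (-0.32), Apoe (-0.23), Il7r (-0.23) and Tec (-0.23).

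Effects called in opposite directions belonged to Ccr1 (-1.20) and Cdkn1a (-0.57).

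In 1 genotype alone the effect itself passed, and the difference was called, for Itgax (0.17) and Tmem176b (1.78).

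The directions were checked under 3 other scalings. With library size alone the sign of the flox effect turned for Cdkn2d, Itgax and Tmem176b, and with upper quartile factors it turned for Itgax. Under library size alone, upper quartile factors and DESeq2, 0 of the 106 KO effects and 0 of the 106 differences changed sign. The difference was called with the same sign for 102, 104 and 97 of the 106 under these settings, in that order. In flox cells the effects of Itgax and Tmem176b had not passed the test in the first place.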

How the results depend on the processing

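Each count of called genes stayed within 1.5 times of the reported one under every alternative run, but the balance of higher and lower calls did not always hold. The near-even split in KO cells turned to 4188 higher and 4249 lower with DESeq2, to 4499 and 4750 with no filter, and to more lower than higher (4330 to 4403 against 4410 to 4446) when 1 KO library was left out. Library size alone turned the split past 2-fold, to 1007 higher and 807 lower, and that of the differences, to 1312 above and 1716 below. Called genes in KO cells numbered 8745 to 8832 when 1 KO library was left out, 8437 with DESeq2 and 9401 with library size alone. Called differences numbered 2447 to 3289 when 1 library was left out and 2166 with DESeq2. With the replicate number as a block, 9152 genes were called in KO cells and 2784 differences, and since the numbers do not pair the libraries this is no test of the effect.

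The change of Asxl2 in KO cells was -0.21 to -0.084 when 1 KO library was left out, and passed without KO_OC replicate 1 (-0.21, edgeR adjusted p = 0.0173). With library size alone it was 0.0017 (edgeR adjusted p = 0.986), since that scaling moves the median of all genes by 0.13. Of the 206 genes named by the rule, Atp6v0d2, Bgn, Col1a2, Gp1ba, Itgb3 and S100a8 lost their call in KO cells under at least 1 alternative. Of the same 206, 17 lost the call of their difference: Bmp2, Cmklr1, Csf1r, Eif5a, Fosl1, Fpr1, Gab2, Gata2, Hpgd, Hsp90ab1, Idh3a, Itgax, Nfkbia, Slc7a5, Src, Tnip1 and Traf5. Genes named beyond the rule, Traf6 among them, were not part of this check, and their calls may depend on the setting. Genes with few counts had the widest intervals.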
